A study of Mus musculus with 16 samples.

Results

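Liver RNA from mice that received a ketohexokinase (KHK) inhibitor on a high-fat diet was compared with liver RNA from mice on a low-fat diet. The comparison used the 4 libraries labelled as KHK inhibitor (HFD + Inhib) and the 4 labelled as control on chow (LFD), 8 of the 16 libraries in the series. All 18335 genes that passed an expression filter were tested. The mice were male C57BL/6J, 6 weeks old when the diets began, and were killed after 10 weeks of feeding. Treatment covered the last 4 weeks. Both groups were injected with luciferase control siRNA at 10 mg/kg every 2 weeks. The LFD mice were gavaged with methylcellulose, and the HFD + Inhib mice with PF-06835919 at 15 mg/kg in methylcellulose, 2 times a day. The labels call the LFD diet chow. The groups compared differ in diet and in inhibitor together, and no low-fat group received the inhibitor, so the 2 factors cannot be told apart within this comparison. Levels in the 4 HFD libraries, from mice on the same high-fat diet with control siRNA and methylcellulose, are therefore given beside the key genes. Those libraries enter tests against LFD and against HFD + Inhib that share libraries with the comparison described. The study's methods also describe an injection of saline or insulin shortly before tissue collection, and the labels do not say which a mouse received. The labels number the libraries of a group from 1 to 4 without stating that each came from a different mouse. The p-values therefore measure a spread between libraries, estimated over all 16 libraries in 1 fit. These include 4 from mice on the high-fat diet with KHK siRNA at 20 mg/kg every 2 weeks and methylcellulose, not described here.

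The total expected count per library ranged from 25572883 to 35125005 in LFD and from 27704386 to 32245606 in HFD + Inhib. Levels are given as CPM, counts per 1e+06 of the library total scaled by TMM, and a level is compared only with the level of the same gene in other libraries. Changes are log2 fold changes of HFD + Inhib over LFD from edgeR's quasi-likelihood test with their standard error (SE). Adjusted p-values are Benjamini-Hochberg values over all genes tested, with a threshold of 0.05.

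KHK phosphorylates fructose to fructose 1-phosphate, and triokinase (Tkfc) phosphorylates the glyceraldehyde that is released when this is cleaved. PPARα is a nuclear receptor of hepatocytes that binds fatty acids and fibrate drugs and drives genes of peroxisomal and mitochondrial fatty acid oxidation, CYP4A hydroxylases, acyl-CoA thioesterases and ketone body synthesis. Many secreted plasma proteins, complement factors and sex-biased enzymes are made by the same hepatocytes, so that changes in these programs can be read from one tissue.

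Of the genes tested, 3438 were higher in HFD + Inhib than in LFD (18.8%) and 3329 were lower (18.2%). A list of genes whose share of higher or lower members lies near these percentages does not stand apart from all genes. Genes high in only 1 group could pass the expression filter through that group and then enter the count of a list. The median log2 fold change over all genes was -0.02. Of the genes called, 972 higher genes (5.3% of those tested) and 776 lower genes (4.23%) also changed by 1 or more on the log2 scale. The 4 libraries of 1 group all lay above the 4 of the other in 5712 genes (31.2%). The first principal component of the 8 libraries held 51.5% of their variance and separated the groups, with LFD libraries at -64.7 to -37.5 and HFD + Inhib libraries at 41.4 to 59.0. In the same fit, HFD against LFD gave 1757 higher (9.58%) and 1613 lower genes (8.8%), and HFD + Inhib against HFD gave 1796 higher (9.8%) and 1543 lower genes (8.42%).

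**Figure D1:**
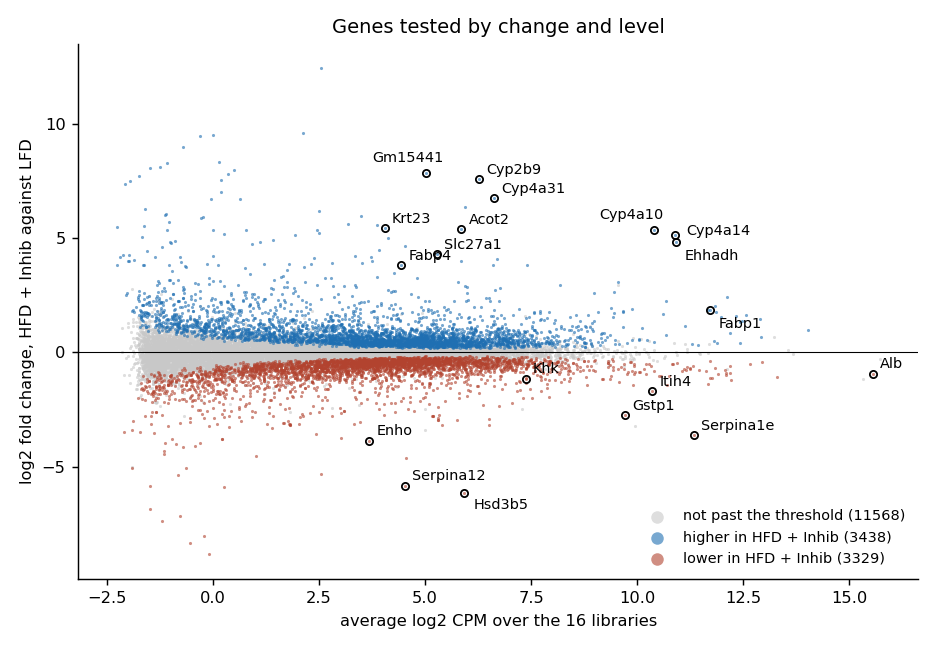
Log2 fold change of HFD + Inhib against LFD (vertical axis) against average log2 CPM over the 16 libraries (horizontal axis) for the 18335 genes tested, blue for the 3438 higher and red for the 3329 lower genes. Ehhadh, Cyp4a10 and Cyp4a14 stand above log2 fold changes of 4 at high levels, and genes near 0 counts in LFD have fitted changes that depend on the prior count.

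The change of a gene moved with the GC content of its longest transcript. Across 8342 genes whose average log2 CPM was 3 or more, Spearman's rho between the 2 was -0.547, a description over genes, which are not independent replicates. Genes under 40% GC had a median log2 fold change of 0.49, and genes of 60% GC or more had a median of -0.47. A fit with GC and length offsets took rho to -0.00047 and called 2269 of 15858 genes higher (14.3%) and 2397 lower (15.1%). Of the 3038 higher and 3091 lower genes among these 15858 in the fit without offsets, 1786 and 1788 were called in the same direction by both fits. The part of GC content in the results was not tested beyond this correction, and group and GC trend cannot be told apart in the design. Changes of under about 0.5 on the log2 scale are of the size of this trend, and the corrected value is given where it changed the call of a gene described or moved a list's count by more than 1.5 times.

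**Figure D2:**
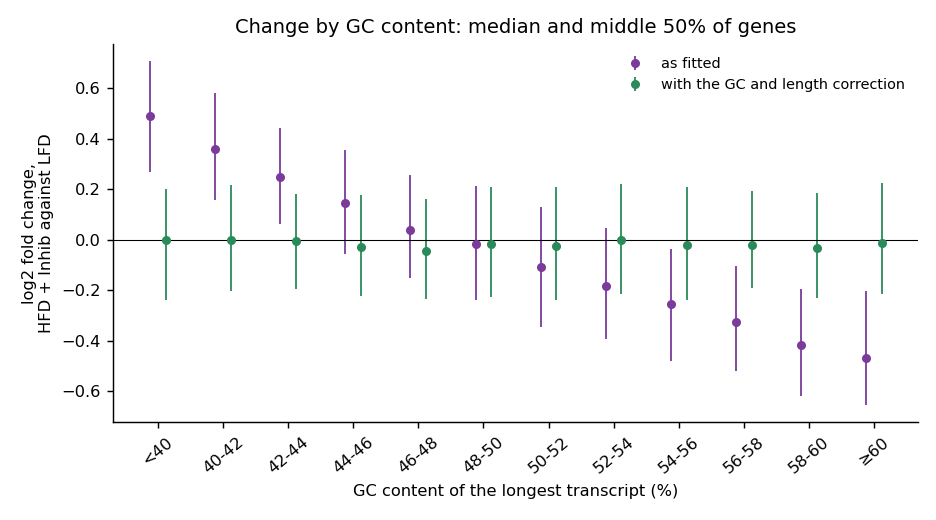
Median log2 fold change (points) and middle 50% of genes (lines) by GC content of the longest transcript in percent, for the 8342 genes at an average log2 CPM of 3 or more. Without the correction (purple) the medians run from 0.49 under 40% GC to -0.47 at 60% or more, and with it (green) they lie near 0.

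The libraries carried the markers of liver. Albumin (Alb), the main plasma protein, was at 67426, 53054, 55439.5 and 52975 CPM in LFD, 54080.2, 42757, 52893 and 54189.8 CPM in HFD and 29784, 27702, 30234 and 31981 CPM in HFD + Inhib. All HFD + Inhib libraries lay below all LFD libraries, and Alb fell 1.91-fold (log2 fold change -0.94 ± 0.13 SE, adjusted p = 7.03e-05). Of 11 hepatocyte-defining genes, 10 were lower and none was higher, and their summed level was 113213 ± 11282 CPM in LFD against 65939 ± 949 CPM in HFD + Inhib (SD, n = 4). The summed marker levels of other liver cells were as follows. Endothelial markers went from 867 to 709 CPM, stellate cell and matrix genes from 567 to 517 CPM and cholangiocyte markers from 62.7 to 57.3 CPM. Kupffer cell and macrophage genes went from 472 to 363 CPM. Lipid-associated macrophage and monocyte genes went from 337 to 535 CPM, of which the lipase gene Lpl, which is also made by other cells, went from 26.6 ± 15.4 to 189 ± 53.5 CPM, and that list had a median log2 fold change of -0.07. Their part in the fall of the hepatocyte genes was not tested. In bulk RNA, fewer cells of a type and less RNA per cell cannot be told apart.

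**Figure D3:**
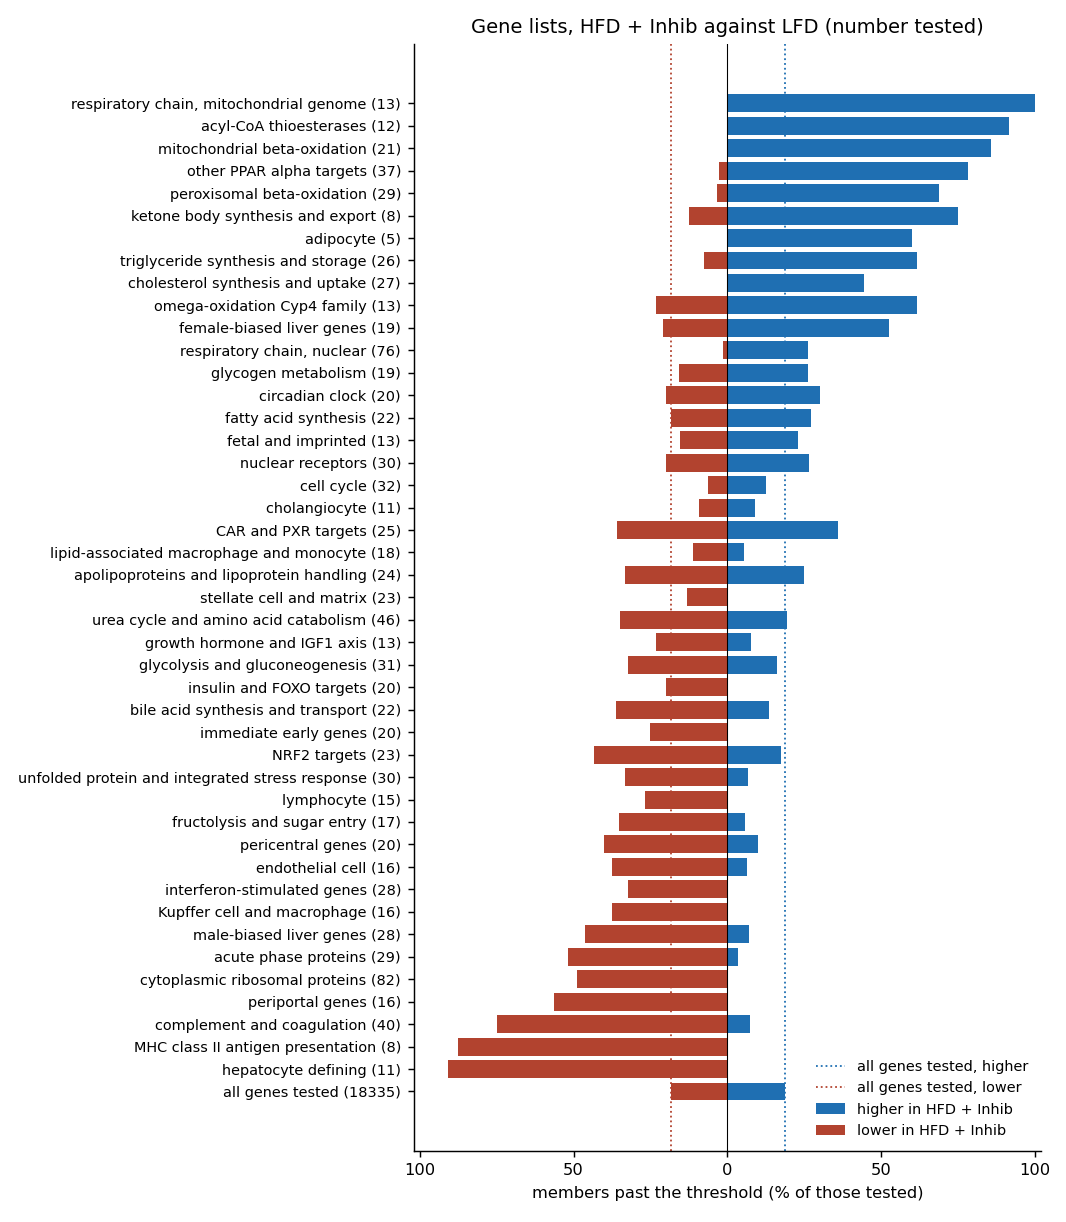
Share of tested members of each gene list past the adjusted p threshold of 0.05 (horizontal axis, percent), higher to the right in blue and lower to the left in red, with the number tested in brackets. Large shares higher include lists of fatty acid oxidation and the genes of the mitochondrial genome. Large shares lower include hepatocyte, MHC class II and complement genes, and dotted lines mark the 18.8% and 18.2% of all genes tested.

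Khk itself was lower with the inhibitor. Its level was 214, 233, 349 and 269 CPM in LFD, 251, 322, 233 and 251 CPM in HFD and 112, 152, 94.6 and 120.5 CPM in HFD + Inhib. The inhibitor libraries did not overlap those of LFD or HFD, and the level fell 2.23-fold against LFD (log2 fold change -1.15 ± 0.20 SE, adjusted p = 0.000332). Tkfc stood at 316, 301, 350.1 and 319 CPM in LFD, 290.3, 486, 315 and 298 CPM in HFD and 126, 184, 116 and 127 CPM in HFD + Inhib, again without overlap (log2 fold change -1.22 ± 0.16 SE, adjusted p = 3.7e-05).

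Across the fructolysis and sugar entry list, 1 of 17 tested members was higher and 6 were lower. The higher one was Aldh3a2, a fatty aldehyde dehydrogenase that also takes glyceraldehyde. It was at 186, 266, 239.9 and 249 CPM in LFD, 417, 539.5, 469 and 502 CPM in HFD and 1647, 1498, 1210.1 and 1453 CPM in HFD + Inhib, with 3 separate ranges (log2 fold change 2.63 ± 0.13 SE, adjusted p = 1.51e-09). Lower members besides Khk and Tkfc included the hexokinase Hk3 (-1.14 ± 0.30 on the log2 scale), the sugar transporter Slc2a8 (-1.11 ± 0.15) and the aldose reductase gene Akr1b3 (-0.65 ± 0.17). Sorbitol dehydrogenase (Sord) had a log2 fold change of -0.07 ± 0.10 and did not pass (adjusted p = 0.601).

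Genes of fatty acid oxidation were higher in large numbers. In the peroxisome, 20 of 29 listed genes were higher and 1 was lower, with a median log2 fold change of 0.99. The lower one, Acox3 of branched-chain substrates, lost its call without any 1 of LFD replicates 1 and 3 and HFD + Inhib replicates 1, 3 and 4 and with the GC and length correction, and it is named after its values were seen. Ehhadh, the bifunctional enzyme of the pathway, was at 257, 252, 247 and 218 CPM in LFD, 285, 236, 315 and 277 CPM in HFD and 9067, 6816, 5561 and 6448 CPM in HFD + Inhib. The LFD and HFD libraries lay close together and every inhibitor library lay far above them, a 28.6-fold increase (log2 fold change 4.84 ± 0.17 SE, adjusted p = 2.56e-11). Pex11a, a protein of peroxisome division, rose from 39.5 ± 3.57 to 279 ± 47.6 CPM, each mean ± SD of 4 libraries (log2 fold change 2.82 ± 0.18 SE, adjusted p = 2.19e-08). Decr2, which prepares unsaturated fatty acyl-CoA for the pathway, rose from 147 ± 12.2 to 397 ± 33.9 CPM (log2 fold change 1.43 ± 0.09 SE, adjusted p = 1.73e-08). The summed level of the list was 9678 CPM in LFD, 10250.1 CPM in HFD and 33452 CPM in HFD + Inhib.

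The CYP4A enzymes hydroxylate fatty acids at the omega end. Cyp4a10 was at 55.6, 130.03, 182 and 114 CPM in LFD, 100.1, 104, 179 and 135 CPM in HFD and 5835, 5114, 4432 and 4460.1 CPM in HFD + Inhib. Cyp4a14 was at 118, 278, 259 and 147 CPM in LFD, 201, 74.7, 329.7 and 197 CPM in HFD and 7368, 6855, 6995 and 6885 CPM in HFD + Inhib. LFD and HFD overlapped for both, and the inhibitor libraries stood apart by a wide margin. Cyp4a10 rose 41.2-fold (log2 fold change 5.36 ± 0.34 SE, adjusted p = 1.79e-08) and Cyp4a14 35.03-fold (log2 fold change 5.13 ± 0.39 SE, adjusted p = 1.11e-07). Cyp4a31 rose from 3.49 ± 1.16 to 375 ± 67.1 CPM (log2 fold change 6.74 ± 0.25 SE, adjusted p = 3.38e-11). In the opposite direction, Cyp4f14 of the related CYP4F group fell from 239.7 ± 23.4 to 78.7 ± 19.1 CPM (log2 fold change -1.61 ± 0.14 SE, adjusted p = 3.85e-07). In all, 8 of 13 Cyp4 genes were higher and 3 were lower, and the lower 3 were all CYP4F genes. Cyp4a10 shares 29.8% of its 50-base words with transcripts of other genes, Cyp4a32 and Cyp4a31 among them, so reads may be divided unevenly within the family.

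Acyl-CoA thioesterases release free fatty acids from coenzyme A, and 11 of 12 were higher and none was lower (median 1.77). The 11 include Acot5, which had no count in LFD and could pass the filter through HFD + Inhib. The cytosolic Acot1 was at 14.6, 20.2, 34.2 and 15.9 CPM in LFD, 16.1, 15.3, 17.8 and 15.6 CPM in HFD and 458, 362, 236 and 369 CPM in HFD + Inhib (log2 fold change 4.07 ± 0.26 SE, adjusted p = 2.31e-08). The mitochondrial Acot2 was at 3.31, 4.84, 6.96 and 4.91 CPM in LFD, 7.66, 9.56, 12.4 and 9.66 CPM in HFD and 254, 213, 143 and 229.5 CPM in HFD + Inhib (log2 fold change 5.38 ± 0.25 SE, adjusted p = 4.86e-10). No inhibitor library overlapped another group for either gene. The peroxisomal Acot3 rose from 2.54 ± 1.02 to 208 ± 66.5 CPM (log2 fold change 6.34 ± 0.54 SE, adjusted p = 3.9e-07), with HFD at 27.2 ± 16.5 CPM between the 2 groups. Acot4, also peroxisomal, rose from 15.9 ± 2.04 to 135 ± 42.5 CPM (log2 fold change 3.08 ± 0.25 SE, adjusted p = 1.81e-07), and Acot12, which acts on acetyl-CoA, from 94.1 ± 17.4 to 187 ± 3.19 CPM (log2 fold change 0.99 ± 0.12 SE, adjusted p = 1.02e-05). Acot5, named after its values were seen, had no count in the 4 LFD libraries and 132 counts in the 4 HFD + Inhib libraries, at least 43.0-fold higher against a floor of 3 counts over the group. Acot2 shares 27.7% of its 50-base words with other genes, Acot1 first among them, so the 2 cannot be fully separated.

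Promoters in the RefSeq table, a single chromosome left out, were searched for a direct repeat of the kind nuclear receptor pairs with RXR bind. It was written GGNCA, 1 further base of any kind and then AGGTCA, with N for any base. Both strands were read over 250 bases before the start. The motif was in 0.258% of 12799 tested genes with a promoter in the set searched. It was in 0.332% of the 602 of these genes with an adjusted p under 0.05 and a log2 fold change above 1, close to that background, and in 0.418% of the 479 with a log2 fold change below -1, F7 and Itih4. Among 85 genes of the oxidation, thioesterase, ketone body and other PPARα target lists it was in 2 (2.35%), Acot4 and Fabp1. These are the same 2 that were found among the 602 higher genes. Some genes described here, such as Cyp4a10, Cyp4a14 and Cidea, had no promoter in the set searched. The 120 bases before the start of each are shown from RefSeq (build GRCm38.p6, plus strand, chr12:84038259-84038378 and chr6:71199759-71199878), with the match in capitals as it reads on this strand, the reverse complement of the motif. The counts were made on another build, mm39, and the sequences were matched by gene symbol only.
Acot4: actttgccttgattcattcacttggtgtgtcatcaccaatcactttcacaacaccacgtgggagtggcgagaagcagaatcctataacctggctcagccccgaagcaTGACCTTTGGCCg
Fabp1: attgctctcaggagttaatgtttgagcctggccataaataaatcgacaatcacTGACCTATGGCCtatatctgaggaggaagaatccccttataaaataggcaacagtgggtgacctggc
The match begins 13 bases before the start in Acot4 and 67 bases before it in Fabp1. It is a match of letters and was not tested as a binding site.

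In mitochondria, 18 of 21 listed genes of β-oxidation were higher and none was lower (median 1.01). Acadm, the medium-chain acyl-CoA dehydrogenase, was at 185, 229.95, 217 and 235 CPM in LFD, 274, 261, 302 and 292 CPM in HFD and 714, 689, 602 and 699 CPM in HFD + Inhib (log2 fold change 1.64 ± 0.10 SE, adjusted p = 1.19e-08). Hadhb, the thiolase subunit of the trifunctional protein, was at 106, 121, 129 and 131 CPM in LFD, 165, 156, 154 and 165 CPM in HFD and 447, 427, 332 and 405 CPM in HFD + Inhib (log2 fold change 1.73 ± 0.10 SE, adjusted p = 6.78e-09). The LFD, HFD and HFD + Inhib ranges followed each other in this order without overlap in both. The carnitine-acylcarnitine carrier Slc25a20 rose from 64.1 ± 9.72 to 199.5 ± 18.4 CPM (log2 fold change 1.64 ± 0.11 SE, adjusted p = 3.28e-08), and the acyl-CoA synthetase Acsl1 from 969 ± 213 to 3075 ± 325 CPM (log2 fold change 1.67 ± 0.16 SE, adjusted p = 1.18e-06). The mitochondrial thiolase Acaa2 had a log2 fold change of 0.29 ± 0.12, which did not pass (adjusted p = 0.0685) but passed with the GC and length correction (0.40, adjusted p = 0.0034) and without HFD + Inhib replicate 3 (0.40, adjusted p = 0.00849), by DESeq2 (adjusted p = 0.0454) and with a filter of 10 counts in every library (adjusted p = 0.0476).

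**Figure D4:**
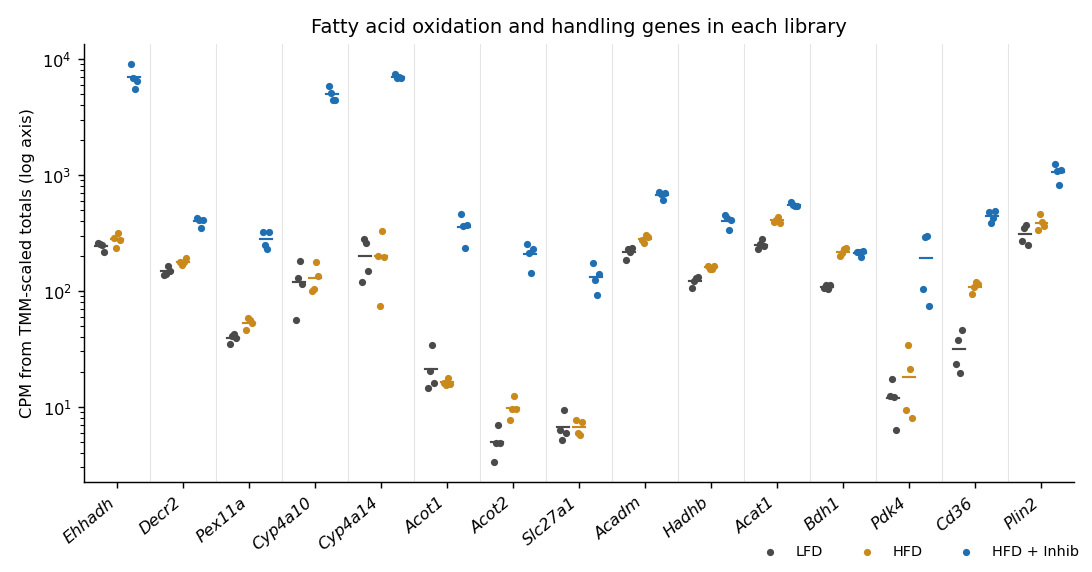
CPM of 15 genes of fatty acid oxidation and handling (log axis) in the 4 LFD (grey), 4 HFD (orange) and 4 HFD + Inhib (blue) libraries, with points for libraries and bars for group means. HFD points lie near LFD for Ehhadh, Cyp4a10, Cyp4a14 and Slc27a1, while Bdh1 is as high in HFD as in HFD + Inhib.

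Ketone bodies are made from the acetyl-CoA of β-oxidation, and 6 of 8 listed genes were higher and 1 was lower. Bdh1, which interconverts the 2 main ketone bodies, was at 107, 112, 104 and 112 CPM in LFD, 199.6, 211, 228 and 232 CPM in HFD and 217, 218, 197 and 219.7 CPM in HFD + Inhib. HFD and HFD + Inhib overlapped, and both stood above LFD (log2 fold change 0.97 ± 0.08 SE, adjusted p = 1.5e-07 for HFD + Inhib, log2 fold change 1.003 for HFD). The monocarboxylate transporter Slc16a7 had means of 48.8 ± 16.1 CPM in LFD, 122 ± 26.1 in HFD and 147 ± 23.9 in HFD + Inhib. The acetyl-CoA acetyltransferase Acat1 rose from 250.3 ± 21.4 to 555 ± 20.7 CPM (log2 fold change 1.15 ± 0.09 SE, adjusted p = 1.5e-07). The lower member was Bdh2, a cytosolic dehydrogenase named after its values were seen (log2 fold change -1.01 ± 0.17, adjusted p = 0.000241).

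Among other known PPARα targets, 29 of 37 tested were higher and 1 was lower, or 2 with the correction or without LFD replicate 1 (median 1.31). Of the 38 listed, 3, 4, 2 and 4 were at 0 in LFD replicates 1 to 4 and none in any HFD + Inhib library. Such genes could pass the filter through HFD + Inhib, which can favour higher members in this count. The receptor gene Ppara was at 246, 311, 250.2 and 284 CPM in LFD, 429.9, 392, 484 and 605 CPM in HFD and 631, 537, 529 and 647 CPM in HFD + Inhib (log2 fold change 1.10 ± 0.13 SE, adjusted p = 8.99e-06). HFD and HFD + Inhib overlapped and both lay above LFD. Slc27a1, a fatty acid transport protein that is low in normal hepatocytes, was at 6.29, 5.16, 9.38 and 5.999 CPM in LFD, 7.75, 5.93, 5.73 and 7.47 CPM in HFD and 175, 124, 91.7 and 138 CPM in HFD + Inhib (log2 fold change 4.30 ± 0.23 SE, adjusted p = 4.46e-09). Cd36, a fatty acid receptor, rose from 31.6 ± 12.2 to 443 ± 48.4 CPM with HFD at 109 ± 10.6 CPM (log2 fold change 3.81 ± 0.23 SE, adjusted p = 1.41e-08). Pdk4, the kinase that turns off pyruvate dehydrogenase, was at 104, 292, 294 and 74.3 CPM against 12.3, 17.5, 12.04 and 6.26 CPM in LFD, without overlap (log2 fold change 3.99 ± 0.58 SE, adjusted p = 8.46e-05). The pantetheinase Vnn1 rose from 19.6 ± 7.35 to 275 ± 18.3 CPM (log2 fold change 3.81 ± 0.23 SE, adjusted p = 1.51e-08).

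Fatty acid binding proteins carry fatty acids through the cytosol. Fabp1, the liver form, was at 1737, 1830.3, 1751 and 2116 CPM in LFD, 2346, 1983, 2855 and 2747 CPM in HFD and 5733, 7980.03, 6596 and 6769 CPM in HFD + Inhib (log2 fold change 1.86 ± 0.22 SE, adjusted p = 1.03e-05). HFD overlapped LFD, and no inhibitor library overlapped either. Fabp2, the intestinal form, rose from 28.5 ± 4.06 to 113 ± 17.2 CPM (log2 fold change 1.99 ± 0.13 SE, adjusted p = 2.9e-08), and the transporter Slc27a2 from 897 ± 152 to 1885 ± 175 CPM (log2 fold change 1.07 ± 0.13 SE, adjusted p = 1.13e-05). Hsd17b11, an enzyme found on lipid droplets, rose from 107 ± 19.2 to 823 ± 25.1 CPM (log2 fold change 2.94 ± 0.13 SE, adjusted p = 4.86e-10). The malic enzyme Me1, which supplies NADPH, rose from 243 ± 23.3 to 493 ± 99.7 CPM (log2 fold change 1.02 ± 0.22 SE, adjusted p = 0.00194), and it shares 22.9% of its 50-base words with other genes.

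Genes of triglyceride synthesis and storage were higher in 16 of 26 cases and lower in 2, or in 1 with the correction, or without LFD replicate 1 or HFD + Inhib replicate 2 (median 0.80). Plin2, the coat protein of hepatocyte lipid droplets, was at 271, 352, 366 and 247 CPM in LFD, 334, 463, 389.96 and 361 CPM in HFD and 1248, 1071, 811 and 1108 CPM in HFD + Inhib (log2 fold change 1.78 ± 0.15 SE, adjusted p = 4.71e-07). Cidec, which enlarges droplets by fusion, was at 1.34, 0.430, 1.02 and 1.02 CPM in LFD, 3.94, 15.2, 6.87 and 4.85 CPM in HFD and 64.9, 32.9, 39.2 and 45.3 CPM in HFD + Inhib (log2 fold change 5.58 ± 0.42 SE, adjusted p = 1.04e-07). The lowest inhibitor library was above the highest HFD library for both. Its relative Cidea had 2 counts in the 4 LFD libraries together and 1965 in HFD + Inhib, a ratio of 960 with a 95% exact counting interval of 265 to 7934 that covers counting error only. Without LFD replicate 1, which held these 2 counts, the LFD group was at 0. Mogat1, a monoacylglycerol acyltransferase, rose from 0.234 ± 0.115 to 17.96 ± 5.29 CPM (log2 fold change 6.20 ± 0.37 SE, adjusted p = 9.77e-09), and the glycerol-3-phosphate acyltransferase Gpat3 from 2.07 ± 0.947 to 37.9 ± 8.70 CPM (log2 fold change 4.19 ± 0.31 SE, adjusted p = 9.36e-08).

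Part of this group is also made by fat cells. Fabp4 was at 4.91, 4.98, 4.33 and 5.08 CPM in LFD, 6.03, 6.78, 7.81 and 6.96 CPM in HFD and 67.9, 68.5, 99.04 and 36.5 CPM in HFD + Inhib (log2 fold change 3.82 ± 0.25 SE, adjusted p = 2.93e-08). Lipoprotein lipase (Lpl) was at 48.5, 25.6, 14.96 and 17.2 CPM in LFD, 19.4, 21.5, 21.5 and 21.4 CPM in HFD and 213, 124, 248 and 170.3 CPM in HFD + Inhib (log2 fold change 2.83 ± 0.31 SE, adjusted p = 4.43e-06). Cfd, the serine protease adipsin, was at 0.293, 0.0358, 1.11 and 0.659 CPM in LFD, 1.79, 6.70, 0.797 and 1.06 CPM in HFD and 52.3, 16.9, 43.4 and 25.4 CPM in HFD + Inhib (log2 fold change 5.96 ± 0.69 SE, adjusted p = 9.65e-06). These 3 were the members of the adipocyte list that rose, 3 of 5 tested, and all were without overlap between LFD and HFD + Inhib. Without LFD replicate 3 the log2 fold change of Cfd was 6.66. The other tested members, Pparg and Slc2a4, did not pass. Pparg had 908 counts over the 4 LFD libraries and 1081 over HFD + Inhib, and Slc2a4 had 38 and 23. The listed adipocyte markers too low to be tested were at or near 0. Adipoq had 23 counts over the 4 LFD libraries and 5 over HFD + Inhib, Plin1 had 21 and 1, Retn 12 and 1, Adig 0 and 4, and Lep had 0 in both groups. The summed level of the 10 listed genes was 60.8, 38.7, 30.2 and 32.1 CPM in the 4 LFD libraries and 342, 219.8, 399 and 242 CPM in the 4 HFD + Inhib libraries, with Lpl the most abundant by CPM in the list. In the apolipoprotein and lipoprotein handling list, of which more genes were lower than higher, the receptor gene Vldlr rose from 3.81 ± 1.28 to 37.1 ± 12.7 CPM (log2 fold change 3.28 ± 0.37 SE, adjusted p = 7.96e-06) and the endothelial lipase Lipg from 8.30 ± 1.59 to 48.9 ± 5.51 CPM (log2 fold change 2.56 ± 0.28 SE, adjusted p = 5.85e-06).

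In fatty acid synthesis, of 22 genes 6 were higher and 4 were lower, against 18.8% and 18.2% of all genes, and with the GC and length correction the counts were 9 and 1. Without LFD replicate 3, 3 were higher. Elovl5, an elongase of polyunsaturated fatty acids, rose from 386 ± 35.8 to 1275 ± 244 CPM (log2 fold change 1.72 ± 0.17 SE, adjusted p = 2.28e-06). Scd1, the stearoyl-CoA desaturase, was at 16079, 9286, 8030.0 and 8883 CPM in LFD and 16845, 13815, 21325 and 14855 CPM in HFD + Inhib. LFD replicate 1 overlapped the inhibitor group, and the difference did not pass (log2 fold change 0.66 ± 0.26 SE, adjusted p = 0.057) with all libraries in edgeR. It passed without that library (0.94, adjusted p = 0.00974), by DESeq2 (adjusted p = 0.0259) and with no filter (adjusted p = 0.0472). Liver pyruvate kinase (Pklr), a glucose-responsive glycolytic enzyme, was at 183, 252, 354 and 336 CPM in LFD, 214, 350.5, 269 and 242 CPM in HFD and 41.7, 84.9, 83.5 and 72.9 CPM in HFD + Inhib, and it fell 3.97-fold (log2 fold change -1.99 ± 0.24 SE, adjusted p = 1.13e-05). The transcripts of Pklr share 20.6% of their 50-base words with the opposite strand of Hcn3. Mlxipl, which encodes the carbohydrate-responsive factor ChREBP, fell from 385 ± 64.7 to 254 ± 31.2 CPM (log2 fold change -0.60 ± 0.12 SE, adjusted p = 0.00122), a call that was lost with the GC and length correction (-0.30, adjusted p = 0.0672).

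In glycolysis and gluconeogenesis 5 of 31 genes were higher and 10 were lower, against 8 and 5 with the correction, and 6 were lower without LFD replicate 3. The glucokinase regulator Gckr fell from 128 ± 9.77 to 82.3 ± 9.81 CPM (log2 fold change -0.64 ± 0.09 SE, adjusted p = 6.2e-05). Pck1, the phosphoenolpyruvate carboxykinase of gluconeogenesis, had a log2 fold change of -0.39 ± 0.21 and did not pass (adjusted p = 0.157). Glycogen genes were higher in 5 and lower in 3 of 19. Over all genes 18.8% were higher and 18.2% were lower. Glycogen phosphorylase of liver (Pygl) was at 480.4, 549, 557 and 502 CPM in LFD, 445, 515, 474 and 430.02 CPM in HFD and 279, 315, 318 and 299.6 CPM in HFD + Inhib (log2 fold change -0.78 ± 0.10 SE, adjusted p = 2.81e-05). Ppp1r3c, a subunit that targets protein phosphatase 1 to glycogen, was at 80.4, 95.8, 79.99 and 77.3 CPM in LFD, 72.2, 84.5, 112 and 60.8 CPM in HFD and 12.01, 38.5, 40.8 and 26.8 CPM in HFD + Inhib (log2 fold change -1.498 ± 0.30 SE, adjusted p = 0.0011). Neither gene overlapped between the inhibitor and the other 2 groups. The glycogen synthase kinase Gsk3b rose from 68.1 ± 3.94 to 92.7 ± 6.53 CPM (log2 fold change 0.45 ± 0.08 SE, adjusted p = 0.00069).

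Cholesterol synthesis and uptake genes were higher in 12 of 27 cases and lower in none (median 0.47). Hmgcs1, the cytosolic synthase of the pathway, was at 425, 386, 391 and 433 CPM in LFD, 477, 808, 598 and 561 CPM in HFD and 807, 1151, 1758 and 1076 CPM in HFD + Inhib (log2 fold change 1.55 ± 0.30 SE, adjusted p = 0.000778). The sterol reductase Hsd17b7 rose from 62.1 ± 5.02 to 174 ± 14.6 CPM (log2 fold change 1.48 ± 0.21 SE, adjusted p = 7.5e-05), and the isomerase Idi1 from 104 ± 43.7 to 294 ± 66.5 CPM (log2 fold change 1.498 ± 0.34 SE, adjusted p = 0.00278). LFD and HFD + Inhib did not overlap for these 3 genes.

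Many genes of secreted plasma proteins were lower. In complement and coagulation 30 of 40 genes were lower and 3 were higher, or 1 with the correction (median -0.55), against the 18.2% of all genes that were lower. The terminal complement gene C8a was at 757, 691, 594 and 593 CPM in LFD, 390.1, 454, 325 and 331 CPM in HFD and 280.1, 266, 239.9 and 182 CPM in HFD + Inhib, in 3 separate ranges (log2 fold change -1.44 ± 0.14 SE, adjusted p = 1.57e-06). Its partner C8b fell from 263 ± 26.1 to 84.6 ± 24.998 CPM (log2 fold change -1.64 ± 0.20 SE, adjusted p = 1.25e-05). C3, the central complement protein, fell from 7978 ± 774 to 5527 ± 460.4 CPM (log2 fold change -0.53 ± 0.12 SE, adjusted p = 0.00216), and coagulation factor VII (F7) from 72.2 ± 2.64 to 29.1 ± 6.05 CPM (log2 fold change -1.31 ± 0.14 SE, adjusted p = 3.3e-06). Cfb, of the alternative pathway, fell from 993 ± 87.8 to 590.5 ± 19.98 CPM (log2 fold change -0.75 ± 0.09 SE, adjusted p = 7.87e-06), and 73.01% of its words are shared with the overlapping model Gm20547.

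Acute phase proteins were lower in 15 of 29 cases and higher in 1 (median -0.81). Itih4, an inhibitor heavy chain of plasma, was at 2160.4, 1706, 1608 and 1451 CPM in LFD, 1526, 1298, 1396 and 1494 CPM in HFD and 583, 513, 449 and 563 CPM in HFD + Inhib (log2 fold change -1.72 ± 0.13 SE, adjusted p = 9.82e-08). Orm1, an α1-acid glycoprotein, was at 315, 347, 342 and 384 CPM in LFD, 205, 236, 198 and 186 CPM in HFD and 178, 173, 139 and 121 CPM in HFD + Inhib (log2 fold change -1.18 ± 0.13 SE, adjusted p = 3.91e-06). The inhibitor libraries were the lowest of the 3 groups in both. Stat3, the factor that drives this program downstream of interleukin-6, fell from 116 ± 14.7 to 62.8 ± 5.96 CPM (log2 fold change -0.88 ± 0.09 SE, adjusted p = 3.87e-06). Named from the hepatocyte-defining list, transthyretin (Ttr) fell from 4119.5 ± 572 to 1905 ± 203 CPM (log2 fold change -1.11 ± 0.12 SE, adjusted p = 5.1e-06) and fetuin A (Ahsg) from 4579.8 ± 804 to 2412 ± 209.8 CPM (log2 fold change -0.93 ± 0.13 SE, adjusted p = 5.31e-05). In the acute phase list, fibrinogen α (Fga) fell from 4106 ± 387 to 2336 ± 418 CPM (log2 fold change -0.81 ± 0.13 SE, adjusted p = 0.000196). The 1 acute phase member that rose was Il1rn, the interleukin-1 receptor antagonist, from 1.35 ± 0.318 to 20.6 ± 8.63 CPM (log2 fold change 3.93 ± 0.37 SE, adjusted p = 9.97e-07).

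**Figure D5:**
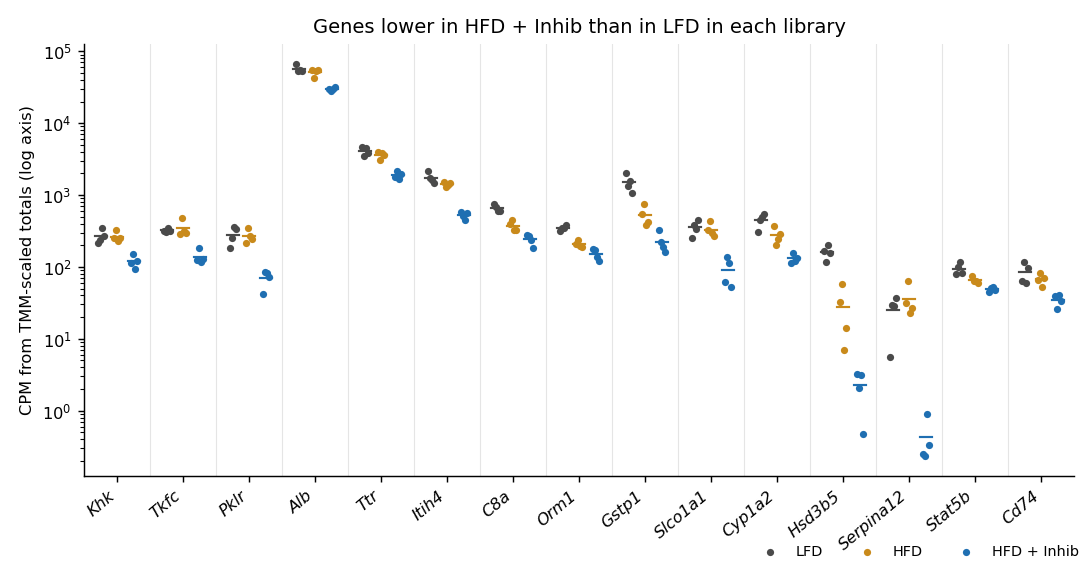
CPM of 15 genes that were lower in HFD + Inhib than in LFD (log axis), with points for the 4 LFD (grey), 4 HFD (orange) and 4 HFD + Inhib (blue) libraries and bars for group means. HFD points lie with LFD for Khk, Tkfc, Pklr, Alb and Serpina12 and between the groups for C8a, Gstp1 and Hsd3b5.

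Of 24 apolipoprotein and lipoprotein handling genes, 6 were higher and 8 lower, against 18.8% and 18.2% of all genes. Apob, the core protein of very low density lipoprotein, had a log2 fold change of -0.07 ± 0.12 and did not pass (adjusted p = 0.651), whereas it was lower with the GC and length correction (-0.23, adjusted p = 0.0432). Apom, a carrier of sphingosine 1-phosphate, fell from 158 ± 24.3 to 57.3 ± 10.1 CPM (log2 fold change -1.47 ± 0.14 SE, adjusted p = 1.65e-06). Its HFD level was 76.0 ± 9.63 CPM, and HFD + Inhib against HFD did not pass (adjusted p = 0.0568). Apoa4 was chosen after its values were seen for its order of levels, which were 84.1, 92.5, 100.6 and 81.6 CPM in LFD, 488, 1149.6, 642 and 448 CPM in HFD and 58.5, 50.8, 59.2 and 45.7 CPM in HFD + Inhib. HFD stood far above both other groups, and the lower level in HFD + Inhib than in LFD passed (log2 fold change -0.74 ± 0.22 SE, adjusted p = 0.0141) but not with the GC and length correction (-0.44, adjusted p = 0.141). Of its 50-base words 60.9% are also found on the opposite strand of other gene models, Gm10680 among them, and the strand setting of the counts is not given in the sources used here.

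A further 2 genes with the highest level in HFD, Gpc1 and H19, were also chosen after their values were seen. The glypican Gpc1 had means of 5.86 ± 2.58 CPM in LFD, 33.7 ± 5.70 in HFD and 6.62 ± 1.195 in HFD + Inhib (SD, n = 4). The imprinted noncoding RNA H19 was at 0.126, 0.179, 0.448 and 0.165 CPM in LFD, 38.8, 3.08, 8.27 and 15.1 CPM in HFD and 0.212, 0.311, 0.648 and 0.720 CPM in HFD + Inhib. HFD + Inhib against LFD did not pass for Gpc1 (log2 fold change 0.19 ± 0.25, adjusted p = 0.586) or for H19 (adjusted p = 0.473). Of 13 tested genes in the fetal and imprinted list, 3 were higher and 2 were lower, or 1 with the correction. Over all genes 18.8% were higher and 18.2% were lower. The imprinted zinc finger gene Peg3 rose from 13.9 ± 3.81 to 43.4 ± 10.6 CPM (log2 fold change 1.65 ± 0.20 SE, adjusted p = 1.59e-05), and Gpc4 fell from 97.4 ± 8.34 to 70.4 ± 3.94 CPM (log2 fold change -0.47 ± 0.07 SE, adjusted p = 0.000152). Ly6d rose from 1.0005 ± 1.27 to 8.64 ± 3.84 CPM (log2 fold change 3.05 ± 0.69 SE, adjusted p = 0.00269), and its log2 fold change was 4.55 without LFD replicate 3.

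Genes of drug and bile handling included higher and lower members. Of 25 targets of the xenobiotic receptors CAR and PXR, 9 were higher, or 5 without LFD replicate 1 or HFD + Inhib replicate 4, and 9 were lower. Cyp2b9 was at 0.0838, 1.003, 0.418 and 0.791 CPM in LFD, 103, 39.9, 199 and 119 CPM in HFD and 17.7, 65.8, 86.7 and 274 CPM in HFD + Inhib, so that HFD and HFD + Inhib overlapped widely above LFD (log2 fold change 7.56 ± 0.94 SE, adjusted p = 1.78e-05). Without HFD + Inhib replicate 4 its log2 fold change was 6.59. Por, the reductase that feeds electrons to these P450 enzymes, rose from 136 ± 35.5 to 362 ± 102.5 CPM (log2 fold change 1.42 ± 0.22 SE, adjusted p = 0.000131). Cyp3a11, the classical PXR target, fell from 2812 ± 887 to 1382 ± 429 CPM (log2 fold change -1.02 ± 0.23 SE, adjusted p = 0.00278).

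NRF2 targets were lower in 10 and higher in 4 of 23 cases. The glutathione transferase Gstp1 was at 2023, 1348, 1583 and 1079.8 CPM in LFD, 543, 754, 388 and 421 CPM in HFD and 327, 224, 188 and 163 CPM in HFD + Inhib, 3 ranges that did not overlap (log2 fold change -2.74 ± 0.27 SE, adjusted p = 1.72e-06). It shares 33.7% of its words with Gstp2 and the pseudogene Gstp-ps, which fell with it (log2 fold change -3.20 ± 0.47 SE, adjusted p = 9.56e-05). The μ-class transferases fell too, Gstm1 by 1.30 on the log2 scale, Gstm2 by 1.38 and Gstm3 by 1.94. For Gstm2 the HFD mean of 50.2 ± 6.65 CPM was above the LFD mean of 29.2 ± 6.08 CPM.

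In bile acid synthesis and transport 8 of 22 genes were lower and 3 were higher. The uptake carrier Slco1a1 was at 254, 383, 336 and 443 CPM in LFD, 328, 438, 293 and 266 CPM in HFD and 62.5, 136, 115 and 53.2 CPM in HFD + Inhib (log2 fold change -1.95 ± 0.31 SE, adjusted p = 0.000166). Cyp2c70, which makes muricholic acids, fell from 316 ± 14.7 to 98.9 ± 11.8 CPM (log2 fold change -1.68 ± 0.17 SE, adjusted p = 2.3e-06). Fgfr4, the receptor for the intestinal hormone that limits bile acid synthesis, fell from 43.2 ± 12.98 to 20.04 ± 4.94 CPM (log2 fold change -1.11 ± 0.19 SE, adjusted p = 0.000308). Abcb4, which moves phospholipid into bile, rose from 219.8 ± 34.4 to 425 ± 19.98 CPM (log2 fold change 0.95 ± 0.11 SE, adjusted p = 1.24e-05).

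Genes known to differ between the sexes in mouse liver were examined in these males. Among male-biased genes 13 of 28 were lower and 2 were higher (median -0.75), and the 2 higher ones, named after their values were seen, were the CYP4A genes Cyp4a12a and Cyp4a12b. Among tested female-biased genes 10 of 19 were higher and 4 were lower (median 1.42) out of 28 listed, the rest being too low to be tested. Members that are high only in HFD + Inhib could pass the filter through that group. Hsd3b5, a male-specific steroid dehydrogenase, was at 169, 115, 199 and 155 CPM in LFD, 32.6, 57.2, 7.06 and 14.3 CPM in HFD and 3.25, 2.06, 3.17 and 0.480 CPM in HFD + Inhib. The 3 groups did not overlap (log2 fold change -6.16 ± 0.87 SE, adjusted p = 6.11e-05). Mup3, a major urinary protein gene, fell from 4407 ± 1244 to 1703 ± 705 CPM (log2 fold change -1.37 ± 0.27 SE, adjusted p = 0.000893), with HFD + Inhib replicate 2 inside the LFD range. The female-biased Rtn4 rose from 39.7 ± 9.13 to 116 ± 10.7 CPM (log2 fold change 1.55 ± 0.16 SE, adjusted p = 3.87e-06), and the peroxisomal transporter Abcd2 from 17.8 ± 8.85 to 61.4 ± 14.7 CPM (log2 fold change 1.79 ± 0.30 SE, adjusted p = 0.000279). Abcd2 was at 52.4 ± 9.69 CPM in HFD, and HFD + Inhib against HFD did not pass (adjusted p = 0.645). In the same fit, 16 male-biased genes were lower and 11 female-biased genes higher in HFD than in LFD, values that share the LFD libraries.

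Growth hormone sets the sex bias of these genes through STAT5. Stat5b was at 79.5, 98.997, 118 and 82.7 CPM in LFD, 74.2, 64.04, 64.3 and 60.1 CPM in HFD and 44.6, 51.1, 52.9 and 47.5 CPM in HFD + Inhib, without overlap between groups (log2 fold change -0.95 ± 0.12 SE, adjusted p = 1.76e-05). Igfals, the stabilizer of circulating IGF1, fell from 72.6 ± 18.3 to 35.3 ± 12.04 CPM with overlap between the libraries (log2 fold change -1.04 ± 0.22 SE, adjusted p = 0.00153). Igf1 was higher, from 348 ± 40.002 to 459 ± 72.8 CPM (log2 fold change 0.40 ± 0.12 SE, adjusted p = 0.0152), but its log2 fold change was -0.09 with the GC and length correction, and its adjusted p was 0.0547 without HFD + Inhib replicate 3. In the list 1 of 13 was higher and 3 were lower, against 18.8% and 18.2% of all genes, and with the correction 0 and 5. Without HFD + Inhib replicate 2, 6 were lower, and without HFD + Inhib replicate 3, 0 were higher. Igfbp1, an insulin-suppressed binding protein, was at 47.3, 104, 345 and 81.5 CPM in LFD and 52.3, 58.02, 56.5 and 39.01 CPM in HFD + Inhib. The groups overlapped, and its call (log2 fold change -1.49 ± 0.46 SE, adjusted p = 0.0192) rested on single libraries, with an adjusted p of 0.171 without LFD replicate 3 and of 0.0552 without HFD + Inhib replicate 4.

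Insulin and FOXO target genes were lower in 4 of 20 cases, against 18.2% of all genes, and higher in none, or in 1 with the correction. The insulin pathway kinase Akt1 fell from 42.5 ± 6.49 to 26.5 ± 1.60 CPM (log2 fold change -0.68 ± 0.10 SE, adjusted p = 0.000109). Akt1 was at 31.2 ± 2.65 CPM in HFD, and HFD + Inhib against HFD did not pass (adjusted p = 0.126). Immediate early genes were lower in 5 of 20 cases, or 3 with the correction, or without LFD replicate 3 or HFD + Inhib replicate 3. Egr1 was at 59.7, 55.4, 228 and 13.9 CPM in LFD, 23.96, 18.3, 22.7 and 22.4 CPM in HFD and 4.77, 8.12, 12.7 and 22.7 CPM in HFD + Inhib, and its log2 fold change of -2.88 ± 0.63 (adjusted p = 0.00227) became -1.82 without LFD replicate 3. Ier2 fell from 28.9 ± 14.3 to 9.53 ± 2.17 CPM (log2 fold change -1.60 ± 0.26 SE, adjusted p = 0.00018) and the orphan receptor gene Nr4a1 from 20.998 ± 11.9 to 4.54 ± 2.71 CPM (log2 fold change -2.21 ± 0.55 SE, adjusted p = 0.00499). LFD replicate 3 had the highest level of Egr1, Ier2 and Nr4a1 of all LFD libraries. Whether a mouse received saline or insulin is not in the labels.

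Clock genes were higher in 6 and lower in 4 of 20 cases, with 3 higher without LFD replicate 1, against 18.8% and 18.2% of all genes. The activator Npas2 was at 5.32, 9.39, 12.6 and 4.22 CPM in LFD, 2.68, 3.44, 2.01 and 0.821 CPM in HFD and 0.601, 0.971, 2.46 and 0.480 CPM in HFD + Inhib (log2 fold change -2.80 ± 0.59 SE, adjusted p = 0.00167), with a log2 fold change of -3.54 without HFD + Inhib replicate 3. The repressors Nfil3 (-1.998 ± 0.33 on the log2 scale) and Cry1 (-1.76 ± 0.36) fell as well, while Per3 rose (2.08 ± 0.58) with overlap between the libraries. Time of day at collection is not in the labels.

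Hepatocytes near the portal vein and near the central vein express different enzymes. Periportal genes were lower in 9 of 16 cases and higher in none. The P450 gene Cyp2f2 fell from 957 ± 80.4 to 431 ± 156 CPM, with HFD at 369 ± 35.9 CPM (log2 fold change -1.15 ± 0.18 SE, adjusted p = 0.000137). Pericentral genes were lower in 8 of 20 and higher in 2, or in 4 without LFD replicate 4 and 1 with the correction. In HFD against LFD 7 were higher and 1 lower, and in HFD + Inhib against HFD none was higher and 11 were lower. Their summed level was 7340 CPM in LFD, 10873 CPM in HFD and 9773 CPM in HFD + Inhib. Cyp1a2 was at 304, 442, 488 and 544 CPM in LFD, 365, 199.97, 241 and 290.03 CPM in HFD and 114, 157, 120.4 and 133 CPM in HFD + Inhib (log2 fold change -1.76 ± 0.19 SE, adjusted p = 4.15e-06). The WNT inhibitor Notum fell from 20.9 ± 1.46 to 7.52 ± 1.91 CPM (log2 fold change -1.47 ± 0.16 SE, adjusted p = 4.17e-06) and Gulo, the last enzyme of ascorbate synthesis, from 296 ± 42.1 to 123 ± 36.7 CPM (log2 fold change -1.27 ± 0.17 SE, adjusted p = 3.99e-05). In contrast Cyp2e1 rose from 3532 ± 1109.7 to 6323 ± 878 CPM (log2 fold change 0.84 ± 0.21 SE, adjusted p = 0.00588).

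Urea cycle and amino acid genes were higher in 9 and lower in 16 of 46 cases, against 18.8% and 18.2% of all genes. Without LFD replicate 1 or HFD + Inhib replicate 3, 10 were lower. Cps1, the first enzyme of the urea cycle, was at 5582, 5832, 5171 and 6101 CPM in LFD, 4881, 3674, 4321 and 4759 CPM in HFD and 3802, 3149.7, 2412 and 2834 CPM in HFD + Inhib (log2 fold change -0.90 ± 0.14 SE, adjusted p = 0.000173). Argininosuccinate lyase (Asl) fell from 364 ± 41.01 to 186 ± 43.3 CPM (log2 fold change -0.97 ± 0.14 SE, adjusted p = 8.91e-05), proline dehydrogenase (Prodh) from 116 ± 15.5 to 55.8 ± 12.1 CPM (log2 fold change -1.05 ± 0.17 SE, adjusted p = 0.000192) and cystathionine β-synthase (Cbs) from 431 ± 118 to 195 ± 27.5 CPM (log2 fold change -1.14 ± 0.17 SE, adjusted p = 7.85e-05). For these 4 genes every inhibitor library lay below every LFD library.

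In the MHC class II, Kupffer cell and lymphocyte lists no gene was higher. MHC class II presentation genes were lower in 7 of 8 cases (median -1.24). The invariant chain Cd74 was at 64.6, 119, 59.9 and 95.7 CPM in LFD, 65.5, 81.1, 52.2 and 70.5 CPM in HFD and 39.8, 26.1, 40.2 and 33.3 CPM in HFD + Inhib (log2 fold change -1.28 ± 0.24 SE, adjusted p = 0.000746). The class II chains H2-Ab1 (-1.47 ± 0.30 on the log2 scale), H2-Aa (-1.21 ± 0.27) and H2-Eb1 (-1.57 ± 0.31) fell with it. In the 3 chains as in Cd74, LFD replicates 2 and 4 were higher than LFD replicates 1 and 3. Beside this, the Kupffer cell and macrophage list was lower in 6 of 16 cases, 3 with the correction, and its summed level was 413, 593, 418 and 463 CPM in the 4 LFD libraries and 437, 298, 343 and 375 CPM in the 4 HFD + Inhib libraries. These sums overlapped. Clec4f, which marks Kupffer cells, fell from 83.2 ± 12.5 to 53.4 ± 7.93 CPM (log2 fold change -0.64 ± 0.12 SE, adjusted p = 0.000747). The part of these cells in the class II result was not tested.

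Of 15 tested lymphocyte genes 4 were lower, against 18.2% of all genes, with Cd4 falling from 1.45 ± 0.360 to 0.299 ± 0.0901 CPM (log2 fold change -2.27 ± 0.33 SE, adjusted p = 7.81e-05), while its summed level was 24.3 CPM in LFD and 23.5 CPM in HFD + Inhib. Interferon-stimulated genes were lower in 9 of 28 cases and higher in none. With the correction, or without LFD replicate 1 or HFD + Inhib replicate 3, 5 were lower, and without HFD + Inhib replicate 4, 3 were. Mx2 fell from 4.57 ± 1.32 to 2.01 ± 0.234 CPM (log2 fold change -1.18 ± 0.22 SE, adjusted p = 0.000748) and the interferon regulatory factor Irf7 from 19.1 ± 2.17 to 10.1 ± 2.01 CPM (log2 fold change -0.92 ± 0.18 SE, adjusted p = 0.000804). Of the endothelial list 6 of 16 were lower, or 3 without LFD replicate 3, and 1 was higher, or 0 with the correction, with the scavenger receptor Stab1 falling from 99.02 ± 16.9 to 63.2 ± 7.08 CPM (log2 fold change -0.65 ± 0.12 SE, adjusted p = 0.000622). Lipid-associated macrophage genes were higher in 1 and lower in 2 of 18, the higher one being Lpl, and with the correction 2 were higher. The summed level of that list was 422, 306, 313 and 308 CPM in the 4 LFD libraries and 551, 478, 615 and 497 CPM in the 4 HFD + Inhib libraries, without overlap, with the cathepsin gene Ctsd the most abundant by CPM, and Lpl, one of its genes, went from 26.6 ± 15.4 to 189 ± 53.5 CPM. Stellate cell and matrix genes were lower in 3 of 23 and higher in none, and with the correction 2 were lower and 2 were higher. Over all genes 18.8% were higher and 18.2% were lower.

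The 13 protein-coding genes of the mitochondrial genome were all higher, and their summed level was 36530.5 ± 14295 CPM in LFD, 71742 ± 19382 CPM in HFD and 96462 ± 18306 CPM in HFD + Inhib. All 13 were also higher in HFD than in LFD, and none was called in HFD + Inhib against HFD. The summed levels of HFD and HFD + Inhib libraries overlapped. CYTB, of complex III, was at 2686, 4031, 3896 and 6662 CPM in LFD, 7582, 6299, 11854 and 8884 CPM in HFD and 10622, 12038, 14531 and 10627 CPM in HFD + Inhib (log2 fold change 1.47 ± 0.24 SE, adjusted p = 0.000191). LFD and HFD + Inhib did not overlap, and LFD replicate 4 was the highest of its group. The complex I genes ND3 (1.78 ± 0.24 on the log2 scale) and ND5 (1.59 ± 0.24) and the complex IV gene COX1 (0.96 ± 0.23) rose too. Among 76 nuclear respiratory chain genes 20 were higher and 1 was lower, or 3 with the correction (median 0.06), with Ndufb3 rising from 29.9 ± 1.66 to 50.6 ± 3.12 CPM (log2 fold change 0.76 ± 0.11 SE, adjusted p = 8.32e-05). Mitochondrial genes were not in the GC-corrected fit, ND3 shares 97.99% and COX1 51.1% of their words with other gene models, and the part of RNA composition in their shift was not tested.

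Cytoplasmic ribosomal protein genes were lower in 40 of 82 cases and higher in none (median -0.31). Without LFD replicate 3 the count was 23, and with the correction 39 were lower and 2 were higher. Their levels in HFD were lower still, with summed levels of 11760.0 CPM in LFD, 7245 CPM in HFD and 9452 CPM in HFD + Inhib. Rpl27a was at 157, 116, 179 and 104 CPM in LFD, 76.2, 61.9, 51.2 and 66.5 CPM in HFD and 74.2, 77.9, 55.6 and 63.5 CPM in HFD + Inhib (log2 fold change -1.04 ± 0.16 SE, adjusted p = 0.000157). Rpl8 fell by 0.75 on the log2 scale, Rpsa by 0.66 and Rps2 by 0.59. Ribosomal genes have many processed copies, and 42.97% of the words of Rps2 are shared with other gene models.

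Cell cycle genes were higher in 4 and lower in 2 of 32 cases, or lower in 1 with the correction, against 18.8% and 18.2% of all genes and 14.3% and 15.1% with the correction. Cyclin E2 (Ccne2) rose from 0.530 ± 0.225 to 1.92 ± 0.398 CPM (log2 fold change 1.83 ± 0.28 SE, adjusted p = 0.00014). Its log2 fold change was 1.19 with the GC and length correction (adjusted p = 0.00452). The ribonucleotide reductase subunit Rrm2 fell from 3.93 ± 1.14 to 1.60 ± 0.410 CPM (log2 fold change -1.30 ± 0.25 SE, adjusted p = 0.000739). Genes of the unfolded protein and integrated stress response were lower in 10 of 30 and higher in 2, or 6 and 1 with the correction. Xbp1, a factor of that response, fell from 152 ± 22.5 to 91.7 ± 16.3 CPM (log2 fold change -0.73 ± 0.18 SE, adjusted p = 0.00405). Nuclear receptor genes were higher in 8 and lower in 6 of 30, or 5 and 6 with the correction. The shares over all genes are those given for the cell cycle list.

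Among the genes with the largest increases, Otop1, which encodes a proton channel, had no count in the 4 LFD libraries. It was at 34.7, 10.997, 16.5 and 29.95 CPM in HFD + Inhib and had 2772 counts there, at least 903-fold higher against a floor of 3 counts over the LFD group. The HFD libraries stood at 0, 0.0257, 0 and 0 CPM. Gm15441, a noncoding RNA antisense to Txnip, was at 0.0419, 1.04, 0.627 and 0.461 CPM in LFD, 0.298, 0.0771, 0.152 and 0.235 CPM in HFD and 202, 140.4, 76.9 and 100.3 CPM in HFD + Inhib (log2 fold change 7.85 ± 0.43 SE, adjusted p = 4.48e-09). Of its words 31.04% lie opposite other genes, Txnip first, and Txnip, which restrains glucose uptake and is named after its values were seen, had a log2 fold change of 0.59 ± 0.29 that did not pass (adjusted p = 0.116) except without LFD replicate 3 (1.05, adjusted p = 0.00211). The recombination gene Rad51b rose from 0.582 ± 0.398 to 28.9 ± 5.29 CPM (log2 fold change 5.61 ± 0.38 SE, adjusted p = 3.57e-08), and the keratin gene Krt23 from 1.27 ± 0.469 to 55.9 ± 13.9 CPM (log2 fold change 5.43 ± 0.48 SE, adjusted p = 5.55e-07). HFD means were 2.80 ± 0.656 CPM for Rad51b and 3.53 ± 1.44 CPM for Krt23.

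Among the largest decreases, Serpina12, which encodes vaspin, was at 5.58, 29.7, 28.7 and 37.3 CPM in LFD, 31.5, 63.98, 22.9 and 26.5 CPM in HFD and 0.247, 0.233, 0.907 and 0.330 CPM in HFD + Inhib (log2 fold change -5.84 ± 0.86 SE, adjusted p = 8.69e-05). Every HFD + Inhib library was under 1 CPM and every other library above 5 CPM, and without HFD + Inhib replicate 3 the log2 fold change was -6.51. Serpina1e, of the α1-antitrypsin family, was at 10923, 3155, 5106 and 3885 CPM in LFD, 586, 1901, 315 and 413 CPM in HFD and 1378, 169.5, 238 and 69.2 CPM in HFD + Inhib. The HFD and HFD + Inhib ranges overlapped below LFD (log2 fold change -3.64 ± 0.82 SE, adjusted p = 0.00258), and the log2 fold change was -5.18 without HFD + Inhib replicate 1. The gene shares 34.6% of its words with its neighbours. Enho, which encodes the hormone precursor of adropin, was at 31.3, 8.49, 17.2 and 8.14 CPM in LFD, 17.8, 17.5, 11.9 and 15.2 CPM in HFD and 1.87, 0.816, 1.10 and 0.660 CPM in HFD + Inhib, with HFD inside the LFD range (log2 fold change -3.87 ± 0.41 SE, adjusted p = 4.04e-06). Lrtm1 showed 0.671, 3.26, 1.55 and 8.80 CPM in LFD, 12.9, 11.5, 17.9 and 17.4 CPM in HFD and 0.318, 0.117, 0.453 and 0.150 CPM in HFD + Inhib, so that HFD was above and the inhibitor group below LFD (log2 fold change -3.76 ± 0.70 SE, adjusted p = 0.000636, log2 fold change -2.79 without LFD replicate 4).

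Several of the 12 largest decreases were seen in HFD as well. Serpina4-ps1, a pseudogene, had means of 62.98 ± 30.2 CPM in LFD, 3.25 ± 3.06 in HFD and 2.55 ± 1.48 in HFD + Inhib (log2 fold change -4.64 ± 1.02 SE, adjusted p = 0.00222). Adgrf1, an adhesion receptor, had means of 14.9 ± 11.9, 2.24 ± 0.956 and 1.22 ± 0.755 CPM, and its log2 fold change of -3.60 ± 0.52 was -2.89 without LFD replicate 1. The small nucleolar RNA Snord55 fell by 3.31 on the log2 scale, or by 2.70 without LFD replicate 1, and the gene models Gm23238 and Gm22614 fell by 3.20 and 3.17. For these 5 genes HFD against LFD also passed, at log2 fold changes of -4.25, -2.74, -2.90, -3.16 and -3.19. Gm22614 shares all and Gm23238 75.7% of their words with other models, so their counts cannot be assigned to 1 locus. The model Gm45301 fell by 4.55, or by 3.71 without LFD replicate 3, and fell by 5.14 without HFD + Inhib replicate 3, while HFD against LFD did not pass (-1.98, adjusted p = 0.0613). Of the genes described above, Sord, Cyp4a31, Acot5, Hsd3b5, Gstp-ps, Orm1, Gstm3 and Rpsa also share 20% or more of their 50-base words with other gene models on the same strand, and Gpat3 and Notum on the opposite strand, so their counts are uncertain too.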

How the data were processed

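RNA of 16 mouse liver samples in 4 groups was sequenced, of which the 4 LFD and 4 HFD + Inhib libraries are compared here. Expected counts, deposited by the authors in a single table with a row for each symbol, cover all 16 libraries. The submitters' processing notes name STAR, RSEM and the mouse build mm39, whereas the study's methods describe another assay (HTG EdgeSeq), and 15.1% of values are not whole numbers, as RSEM gives. Versions and the strand setting are not given in the sources used here. RSEM divides reads among similar genes, so values of near-identical copies are uncertain.

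Expected counts were rounded to whole numbers, filtered with edgeR's filterByExpr (minimum count 10), scaled by TMM and fitted with the quasi-likelihood test of edgeR 4.0.16 in R 4.3.3, all 16 libraries in 1 fit, with Benjamini-Hochberg adjustment over 18335 of 50559 symbols. The library totals of the 8 libraries had a median of 30433046. No pair of libraries in a group agreed within sampling noise (chi-square per gene 22.7 or more). GC content and length came from GENCODE transcripts of the build GRCm38, matched by symbol for 86.5% of genes tested. The fit was tested on simulated data. Shared sequence is the percentage of a gene's 50-base words that also occur in transcripts of other genes. Counting intervals and floors cover counting error only. Alternatives were DESeq2 1.42.0, other size factors, filters, samples and thresholds, the replicate number as a block, leaving out single libraries, and the GC and length correction.

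The comparison, the 45 gene lists and the tests were chosen with earlier results of these data known. The text names the 12 largest changes in each direction among genes past the threshold without overlap and with an average log2 CPM of 1 or more, up to 4 members of each list with the smallest adjusted p and the 2 with the highest average log2 CPM, the fructolysis genes, and 5 genes of high level with the smallest adjusted p. Other genes described as results are named as chosen after their values were seen, and some genes that the rule names are not reported here.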

Additional observations from a re-analysis of the deposited data

Results flagged for a closer look

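In 23 of 316 groups of 4 libraries examined, over the genes named, the highest or lowest library stood apart from the other 3 by Dixon's test (gap over range above 0.829). Chance marks about 1 in 20 such groups, and 7.28% were marked here. HFD + Inhib replicate 3 accounted for 6, HFD + Inhib replicate 1 and LFD replicate 1 for 5 each.

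In HFD + Inhib replicate 3, the mitochondrial genes ND3 (1681 CPM) and ND5 (11588.5 CPM) were high, as was Serpina12 (0.907 CPM), while Bdh1 (197 CPM), Acot12 (183 CPM) and Vnn1 (248 CPM) were low. In HFD + Inhib replicate 1, Slc27a2 (2146 CPM), Acat1 (586 CPM), Hk3 (3.71 CPM) and Serpina1e (1378 CPM) were high and Gpc4 (64.5 CPM) was low. In HFD + Inhib replicate 2, Tkfc (184 CPM), Mup3 (2757 CPM) and Xbp1 (116 CPM) were high.

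In LFD replicate 1, Alb (67426 CPM), Scd1 (16079 CPM) and Cidea (0.0839 CPM against 0 in the others) were high, and Sord (802 CPM) and Mup3 (2552 CPM) were low. In LFD replicate 3, Ly6d (2.90 CPM) and H19 (0.448 CPM) were high. Ppp1r3c (95.8 CPM) was high in LFD replicate 2, and Cfb (862 CPM) was low in LFD replicate 4.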

How the results depend on the processing

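The counts of 3438 higher and 3329 lower genes stayed within 1.5 times under DESeq2 (3549 and 3457), other size factors (3448 and 3318), no filter (3268 and 2757), a filter of 10 counts in every library (3195 and 2948) and a fit of the 8 libraries alone (2797 and 2625). With the GC and length correction they were 2269 and 2397, with an adjusted p under 0.01 2230 and 1893, and with a log2 change of 1 or more 972 and 776, the last 2 being stricter by construction. Leaving out single libraries gave 2859 to 3415 higher and 2605 to 3374 lower genes, both lowest without LFD replicate 3. List members called ranged from 204 to 227 higher (222 with all libraries) and from 218 to 261 lower (265), and 149 to 151 of the 158 genes tested by name were called (150).

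With the replicate number as a block, 3394 genes were higher and 3289 lower, and no call of a named gene changed, while 5 list counts of 1 to 3 lower members moved, each by 1 or 2. Deviations from the group means correlated at 0.17, -0.10, -0.03 and 0.09 between LFD and HFD + Inhib libraries of the same number. Pairs of different numbers were not compared, so these values cannot decide whether the numbers pair the samples.

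Igf1 turned to -0.094 with the GC and length correction. Apob, not called with all libraries, ranged from -0.12 to 0.012 (without LFD replicate 2) when single libraries were left out, and was called at -0.23 with the GC and length correction. Lists with 0 called members in 1 direction by edgeR had 0 at an unadjusted p under 0.05 and 0 by DESeq2, except cholesterol genes (1 lower unadjusted) and immediate early genes (1 higher by each). Genes of the mitochondrial genome were not in the fit with the GC and length correction. Small counts in the peroxisomal, ketone body, PPARα target, storage, cell cycle, cholangiocyte, macrophage, stellate, endothelial, imprinted and respiratory lists, and cholesterol genes (1 lower without LFD replicate 2 or 4 against 0), moved by more than 1.5 times without single libraries, the widest being 0 to 6 lower nuclear respiratory genes against 1. The cause of these moves was not tested. At this depth, a gene with 0 counts over the 4 libraries of a group allows a fold only against a floor of 3 counts.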

Other observations

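Of 30 nuclear receptor genes, 8 were higher and 6 lower in HFD + Inhib than in LFD, or 5 and 6 with the GC and length correction. Over all genes the shares were 18.8% and 18.2%, or 14.3% and 15.1% with the correction. Nr1i2, which encodes the xenobiotic receptor PXR, rose from 50.7 ± 4.93 to 68.2 ± 5.18 CPM (edgeR log2 fold change 0.43 ± 0.09 SE, adjusted p = 0.0014), with HFD at 43.4 ± 3.32 CPM. Nr1h2, the oxysterol receptor LXRβ, fell from 28.3 ± 5.44 to 17.8 ± 2.09 CPM (log2 fold change -0.67 ± 0.14 SE, adjusted p = 0.00122). Thra, a thyroid hormone receptor, fell from 23.6 ± 3.78 to 15.8 ± 2.16 CPM (log2 fold change -0.58 ± 0.12 SE, adjusted p = 0.00159) but did not pass with the GC and length correction (-0.18, adjusted p = 0.295).

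Of 14 pancreas markers, 10 had at most 3 counts in each of the 8 libraries. The elastase gene Cela1 was at 8.34, 8.42, 10.9 and 11.5 CPM in LFD, 19.1, 14.4, 12.8 and 15.9 CPM in HFD and 6.96, 4.51, 4.53 and 4.95 CPM in HFD + Inhib, with 3 ranges that did not overlap (log2 fold change -0.91 ± 0.19 SE, adjusted p = 0.00136).

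Ucp3 and Aqp7, named after their values were seen, were near 0 in LFD and higher in each HFD + Inhib library. The uncoupling protein gene Ucp3 had 2 counts over the 4 LFD libraries and 566 over HFD + Inhib, a ratio of 277 with a 95% exact counting interval of 76.2 to 2289. The glycerol channel gene Aqp7 had 2 and 480 counts, a ratio of 235 with an interval of 64.6 to 1942. For both genes the 2 LFD counts lay in LFD replicate 3, and without it the LFD group was at 0. The HFD libraries had 5 counts of Ucp3 and 18 of Aqp7.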
